A study of Homo sapiens with 4 samples.

Results

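The genes described here encode 10 proteins of betaine, methionine and transsulfuration metabolism, measured with and without depletion of the histone demethylase LSD1 in HepG2, an established human hepatoma cell line. They were chosen by name (BHMT, BHMT2, MAT1A, MAT2A, MAT2B, GNMT, AHCY, CBS, CTH and CHDH), with differences between knockdown and control in these arrays already known. Those differences are therefore given as a description and are not used as support for anything. The 10 genes, of 19775 measured, were read by 23 probe sets whose annotation names 1 gene, and every one of the 10 had at least 1 such probe set. A probe set is a group of short probes for 1 stretch of a transcript on the Affymetrix HG-U133 Plus 2.0 array.

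Methionine adenosyltransferase turns methionine into S-adenosylmethionine (SAM), the methyl donor of most cellular methylation. Once its methyl group is spent, SAM leaves homocysteine, which liver can methylate back to methionine with betaine or with folate, or pass down transsulfuration to cysteine. Mature hepatocytes use the isoenzyme encoded by MAT1A and carry high betaine-homocysteine methyltransferase, whereas fetal liver, other tissues and many hepatomas use MAT2A.

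There were 4 arrays in 2 groups. Both control arrays came from HepG2 cells transfected with siRNA against GL3, and the knockdown arrays came from cells given siRNA-1 or siRNA-2 against LSD1, with 1 array for each. All cells were grown in 25 mM glucose with 10% serum, received siRNA at about 50% confluence and were collected 4 days later. No label says that the arrays of a group were separate cultures, so errors and p-values reflect spread between arrays, which may be technical. In the comparison of knockdown with control, that spread also holds any difference between the 2 siRNAs. HepG2 is a single tumour line and not normal hepatocytes.

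All values are log2 values that the authors centred on each probe set, so a value says how far an array lay from the median of that probe set. Levels are gone, and no gene's level is compared with another's. A coarse brightness class (8 or above, 4 to 8, below 4) was read from the rounding of the numbers. By that class 7 of the 10 genes were read by a probe set at 8 or above, BHMT and BHMT2 lay from 4 to 8, and only GNMT was dim (below 4). KDM1A, which encodes LSD1, read 1.23 and 1.17 on the controls, -1.55 with siRNA-1 and -1.17 with siRNA-2. Hepatocyte identity was read from 8 measured markers of 9 listed. All 8 fell in the brightest class and had higher values on the knockdown arrays, with no overlap with the controls (mean -0.10 and -0.22 on the controls, 0.12 with siRNA-1 and 0.41 with siRNA-2). Of 7 measured markers of other cell types, of 8 listed, the leukocyte and endothelial genes PTPRC and VWF were dim, ACTA2 and COL1A1 were above both controls on both knockdown arrays, and PECAM1 and DES were below them. COL1A1, a fibroblast or stellate gene, read -0.51 and -0.68 on the controls, 0.51 with siRNA-1 and 2.06 with siRNA-2. ACTA2, of the same cell types, read -0.35, -0.32, 0.32 and 1.41 in the same order. PECAM1, an endothelial gene, read 0.13 and 0.23 on the controls, -0.13 with siRNA-1 and -0.60 with siRNA-2. Of the rest, the biliary gene KRT19 had overlapping groups, at -0.63 with siRNA-1. The mean of those 7 was -0.09 on each control, 0.02 with siRNA-1 and 0.39 with siRNA-2. Array controls were not level either: 18 probe sets for hybridization spike-ins, RNA added in the laboratory at a fixed amount, averaged -0.69 and -0.61 on the controls, 0.61 with siRNA-1 and 0.65 with siRNA-2. Whether the markers or the spike-in shift play a part in the results was not tested. In this whole-culture RNA, fewer cells of a type and less RNA per cell cannot be told apart.

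MAT1A and MAT2A encode isoenzymes whose differences had opposite signs. For MAT2A the difference was wide on 200769_s_at (-1.43) but not on its brighter probe set 200768_s_at (-0.15). BHMT and BHMT2 are neighbouring paralogs whose values were both high. Sequences upstream of these genes are shown first. Each runs 5′ to 3′ over the 250 bases before the RefSeq start (build GRCh38.p14), with motif matches in capitals. The BHMT window lies at chr5:79111559-79111808 on the plus strand, that of MAT1A at chr10:80289659-80289908 on the minus strand, and that of MAT2A at chr2:85538918-85539167 on the plus strand. For BHMT2 only the 92 bases between its start and that of DMGDH, which is transcribed the other way, are shown (chr5:79069675-79069766, plus strand).
BHMT: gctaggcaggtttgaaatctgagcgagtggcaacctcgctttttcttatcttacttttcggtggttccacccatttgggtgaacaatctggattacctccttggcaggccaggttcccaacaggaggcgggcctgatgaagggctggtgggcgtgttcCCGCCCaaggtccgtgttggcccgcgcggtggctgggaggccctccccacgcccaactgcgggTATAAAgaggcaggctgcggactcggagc
MAT1A: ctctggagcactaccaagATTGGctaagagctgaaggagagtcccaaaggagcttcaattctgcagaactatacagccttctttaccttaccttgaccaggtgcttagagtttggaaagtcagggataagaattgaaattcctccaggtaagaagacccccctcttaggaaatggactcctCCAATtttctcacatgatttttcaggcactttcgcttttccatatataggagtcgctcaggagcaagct
MAT2A: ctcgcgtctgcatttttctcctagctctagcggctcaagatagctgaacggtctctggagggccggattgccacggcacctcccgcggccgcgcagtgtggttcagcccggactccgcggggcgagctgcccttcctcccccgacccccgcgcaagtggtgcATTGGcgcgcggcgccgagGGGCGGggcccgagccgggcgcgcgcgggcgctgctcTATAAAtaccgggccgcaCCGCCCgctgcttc
BHMT2 to DMGDH: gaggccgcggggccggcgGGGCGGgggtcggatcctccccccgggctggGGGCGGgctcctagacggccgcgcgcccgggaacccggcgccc

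Capitals mark the TATA box (TATAAA), the GC box (GGGCGG) and the CCAAT box, on either strand. BHMT held a TATA box 29 to 24 bases and a GC box 92 to 87 bases before the start, in a window of 60.4% GC with 14 CpG. MAT1A had 2 CCAAT boxes and neither of the other motifs, with 44.8% GC and 2 CpG. MAT2A had a TATA box 32 to 27 bases before the start, a CCAAT box and 2 GC boxes, with 71.6% GC and 34 CpG. The stretch shared by BHMT2 and DMGDH held 2 GC boxes. Over all 35116 promoters of the table the median was 58.0% GC and 11 CpG, and a TATA box was found in 10.7%, a CCAAT box in 32.0% and a GC box in 42.6%. Letters used by liver factors were also searched on both strands: GTTAAT (HNF1, in 6.23% of all promoters), TTGCNNAA (C/EBP, 9.05%), CAAAGTCCA (HNF4, 0.325%), TGATGNAA (C/EBP-ATF, 3.14%) and the E-box CACGTG (6.34%). None of the 5 occurs in the 4 stretches shown, which says only that these letters are not in these windows.

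BHMT, the liver and kidney enzyme that moves a methyl group from betaine to homocysteine, differed most among the 10 genes. Its only probe set read -0.94 and -0.99 on the controls, 1.26 with siRNA-1 and 0.94 with siRNA-2. Both knockdown arrays lay well above both controls, which were 0.04 apart. Knockdown minus control was 2.07 ± 0.15 (SE of the fit, 2 arrays in each group, 95% interval 1.67 to 2.46), a 4.2-fold higher reading. In order of the difference BHMT stood 26th of all 19775 genes. Relative to the controls the siRNA-1 array was 2.23 higher (4.69-fold) and the siRNA-2 array 1.91 (3.76-fold). Both siRNAs are set against the same 2 controls, here and below. The gap between the siRNAs was -0.32 (siRNA-2 minus siRNA-1, interval -0.57 to -0.06), which missed the limma threshold of 0.05 (adjusted p = 0.108, adjusted over every gene measured).

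BHMT2, the paralog beside BHMT that methylates homocysteine from S-methylmethionine, also had both knockdown arrays above both controls on its main probe set. That probe set (219902_at) read -0.54 and -0.35 on the controls, 0.50 with siRNA-1 and 0.35 with siRNA-2. Knockdown minus control came to 0.87 ± 0.13, or 1.83-fold (interval 0.53 to 1.22). A further probe set of the same class (230309_at) read -0.54, -0.24, 0.80 and 0.24 in the same order of arrays, a difference of 0.90. The dim one (242169_at) read -0.24, 0.12, 0.05 and -0.05, and its groups overlapped. Thus 2 of 3 BHMT2 probe sets separated the groups, and the dim one did not.

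**Figure D1:**
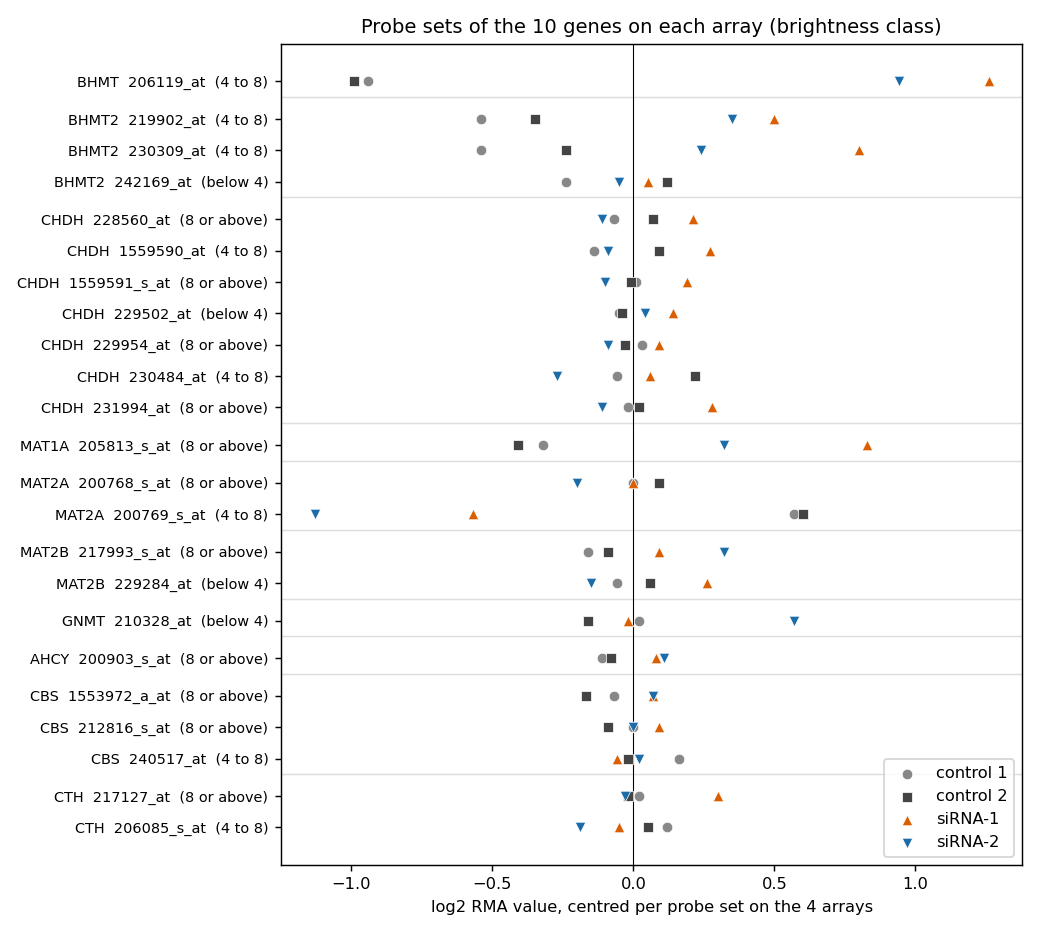
Centred log2 RMA values of the 23 probe sets of the 10 genes, 1 row for each with its brightness class and 1 symbol for each array. BHMT, MAT1A and 2 BHMT2 probe sets have both knockdown symbols right of both controls, MAT2A 200769_s_at has them to the left, and most CHDH, CBS and CTH symbols lie close to 0.

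The genes beside this pair did not share one direction. ARSB, a lysosomal sulfatase gene beyond DMGDH, read 0.24 and 0.41 on the controls, -0.24 with siRNA-1 and -0.67 with siRNA-2. It fell by 0.99 with siRNA-2, and its difference with siRNA-1 was -0.56. DMGDH, the mitochondrial enzyme that takes up the dimethylglycine made by BHMT, was dim and read -0.04, -0.25, 0.52 and 0.04, a difference of 0.43. Its other probe set, also dim, differed by 0.58. On the far side of BHMT, the actin regulator gene JMY differed by 0.03 and the synaptic scaffold gene HOMER1 by 0.26. By the values on the 4 arrays, the genes nearest to BHMT were RIPOR2, C1S, CSTA, BEX1 and ACTA1, at root mean square distances from 0.092 to 0.11 (log2). C1S, a complement protease, read -0.83, -0.99, 1.18 and 0.83. How many genes have such a profile was not counted, and over only 4 arrays the distance says nothing of shared control.

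MAT1A and MAT2A encode the catalytic subunits of the liver and the widespread methionine adenosyltransferase. All 3 of their probe sets carry the suffix _s_at, with which Affymetrix marks probes that can match several transcripts. MAT1A read -0.32 and -0.41 on the controls, 0.83 with siRNA-1 and 0.32 with siRNA-2. Its difference was 0.94 ± 0.20 (interval 0.40 to 1.47), or 1.91-fold, and all knockdown values lay above all control values. The reading was 2.28-fold higher with siRNA-1 and 1.61-fold higher with siRNA-2. The gap between the siRNAs was -0.51 (interval -0.79 to -0.22). It did not pass limma over all genes. It passed without dim genes, a setting in which more of all genes passed for the gap between the siRNAs.

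The 2 MAT2A probe sets differed in size. The brighter one (200768_s_at) read 0.00 and 0.09 on the controls, with a value that also rounds to 0.00 with siRNA-1 and -0.20 with siRNA-2, a difference of -0.15 ± 0.12 (interval -0.48 to 0.19). The probe set of the middle class (200769_s_at) read 0.57 and 0.60 on the controls, -0.57 with siRNA-1 and -1.13 with siRNA-2, a difference of -1.43. Both probe sets were lower on both knockdown arrays, the first barely and the second by more than any other probe set of the 10 genes. Within MAT2A the second minus the first was 0.57 and 0.52 on the controls, -0.57 with siRNA-1 and -0.92 with siRNA-2. So they shifted against each other by -1.11 and -1.46. Array controls for RNA ends also shifted: for ACTB the 5′ minus the 3′ probe set was lower by 0.61 on knockdown, and for GAPDH by 0.18. Whether RNA ends or transcript forms play a part was not tested, and where each MAT2A probe set lies on the transcript is not given in the sources used here.

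Set against each other on the same array, MAT1A minus MAT2A was -0.32 and -0.49 on the controls with the brighter MAT2A probe set, 0.83 with siRNA-1 and 0.52 with siRNA-2. That is a 2.35-fold shift toward MAT1A with siRNA-1 and a 1.91-fold shift with siRNA-2. With the other MAT2A probe set the shifts were 5.07-fold and 5.26-fold. The direction was the same with either probe set, and the size depended on it. Both comparisons use the same MAT1A probe set, so they are not independent readings. Of the shifts of 1.23 (siRNA-1) and 0.93 (siRNA-2) with the brighter MAT2A probe set, MAT1A alone made up 1.19 and 0.68. That MAT2A probe set differed from the controls by -0.04 and -0.25 in the same order, and the other one by -1.15 and -1.71. All shifts of MAT1A minus MAT2A are between arrays, not the ratio of the transcripts in the cell.

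**Figure D2:**
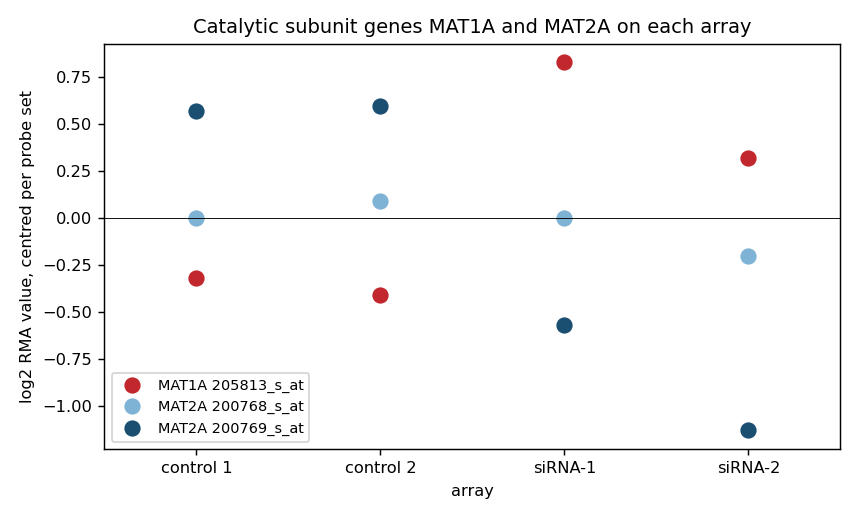
Centred log2 RMA values (vertical axis) of MAT1A and the 2 MAT2A probe sets on each of the 4 arrays, 1 point for each array with no error bar. MAT1A lies below 0 on both controls and at 0.83 and 0.32 on the knockdown arrays, MAT2A 200769_s_at goes the other way to -0.57 and -1.13, and MAT2A 200768_s_at stays between -0.20 and 0.09.

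MAT2B, the regulatory subunit that binds the MAT2A enzyme, read -0.16 and -0.09 on the controls, 0.09 with siRNA-1 and 0.32 with siRNA-2. Its difference was 0.33 ± 0.13, with both knockdown arrays above both controls. The dim second probe set read -0.06, 0.06, 0.26 and -0.15, so its groups overlapped and siRNA-2 was the lowest array. The gap of 0.22 between the siRNAs on the brighter probe set did not pass (interval -0.05 to 0.49, limma adjusted p = 0.197).

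GNMT, the abundant hepatic glycine methyltransferase that buffers SAM, was dim. It read 0.02 and -0.16 on the controls, -0.02 with siRNA-1 and 0.57 with siRNA-2. Only the siRNA-2 array stood above the controls, by 0.64, whereas siRNA-1 lay between them. The gap between the siRNAs was 0.59 (interval 0.17 to 1.01) and did not pass (limma adjusted p = 0.0946). AHCY, which splits S-adenosylhomocysteine into homocysteine and adenosine, read -0.11 and -0.08 on the controls, 0.08 with siRNA-1 and 0.11 with siRNA-2. Its groups did not overlap, but the difference was small at 0.19 ± 0.10 (interval -0.08 to 0.45).

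The transsulfuration enzymes CBS and CTH, which join homocysteine to serine and release cysteine, differed little. The CBS probe set used read -0.07 and -0.17 on the controls and 0.07 with each siRNA, a difference of 0.19 ± 0.10. A second bright CBS probe set differed by 0.10 and a dimmer one by -0.09, with overlapping groups in the dimmer one. CTH read 0.02 and -0.02 on the controls, 0.30 with siRNA-1 and -0.03 with siRNA-2. Its second probe set read 0.12, 0.05, -0.05 and -0.19, lower on both knockdown arrays. So the CTH probe sets had opposite signs with siRNA-1 (0.30 and -0.14), and both were below the controls with siRNA-2 (-0.03 and -0.27).

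CHDH, the mitochondrial dehydrogenase that starts betaine synthesis from choline, had 7 probe sets, the most of the 10 genes. The one used read -0.07 and 0.07 on the controls, 0.21 with siRNA-1 and -0.11 with siRNA-2, a difference of 0.05 ± 0.15. With siRNA-1, 6 of 7 CHDH probe sets were above the controls (-0.02 to 0.29). With siRNA-2, 6 of 7 were below them (-0.35 to 0.09). These probe sets share the same 4 RNA samples and are not replicates, and the gap of -0.32 between the siRNAs on the probe set used did not pass (limma adjusted p = 0.178).

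Across the 10 genes the median difference was 0.26 over both siRNAs, 0.22 for siRNA-1 and 0.32 for siRNA-2, against medians of 0.00, 0.00 and -0.02 over all genes. In the comparison of knockdown with control 0 of the 10 passed limma at 0.05 (adjusted p from 0.0939 for BHMT to 0.91 for CHDH), and 1 of 19775 genes did (0.00506%). At an unadjusted p under 0.05 there were 3 of the 10 and 14.6% of all genes. The smallest two-sided p that exact permutation of these arrays allows is 0.33. Both knockdown arrays lay above both controls for 6 of the 10 genes (23.7% of all genes) and below both for 1 (25.3% of all genes). Of the 23 probe sets, 9 were above (21.6% of all probe sets), 3 were below (25.3%) and 11 overlapped. Because the members were picked with these differences known, nothing is read from these counts.

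For a single siRNA the spread came from the controls alone, so the lone array is assumed to vary like them. With siRNA-1, 0 of the 10 passed limma, as did 0.0% of all genes (4 of the 10 and 26.9% of all genes had an unadjusted p under 0.05), and the smallest adjusted p of any gene was 0.0906. With siRNA-2, 4 of the 10 passed and were higher, where 13.4% of all genes were higher: BHMT (adjusted p = 0.017), MAT1A (0.0274), BHMT2 (0.037) and MAT2B (0.0449). By sign alone 7 of the 10 lay above the controls with siRNA-2 and 3 below. Over all genes 9302 lay above and 10470 below. In the limma fit over all probe sets 3 of the 23 were called higher and 1 lower with siRNA-2, beside 13.7% of all probe sets. The lower one was the second MAT2A probe set, at -1.71 (adjusted p = 0.0255), while GNMT ended just outside the threshold (0.05001). With the mean of a gene's probe sets the count with siRNA-2 was again 4 but of partly different genes: BHMT2 (limma adjusted p = 0.101) and MAT2B (0.259) no longer passed, GNMT did (0.0324), and MAT2A passed as lower (-0.98, 0.01). Without suffixed probe sets MAT2B was at -0.15 with siRNA-2 (0.336), on its dim probe set. These counts come from the contrast that chose the genes. The siRNA-2 array also had the widest values of the series, with an SD over all probe sets of 0.384 against 0.197 with siRNA-1, 0.164 and 0.154 on the controls.

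The gap between the siRNAs was not used in choosing the genes. By limma 0 of the 10 passed that test and 6.43% of all genes did (4 of the 10 and 33.8% of all genes had an unadjusted p under 0.05). Those 4 were MAT1A, BHMT and CTH (-0.33, interval -0.59 to -0.07), lower with siRNA-2 than with siRNA-1, and GNMT, higher with siRNA-2. Missing the threshold does not show that the siRNAs act alike on these genes.

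**Figure D3:**
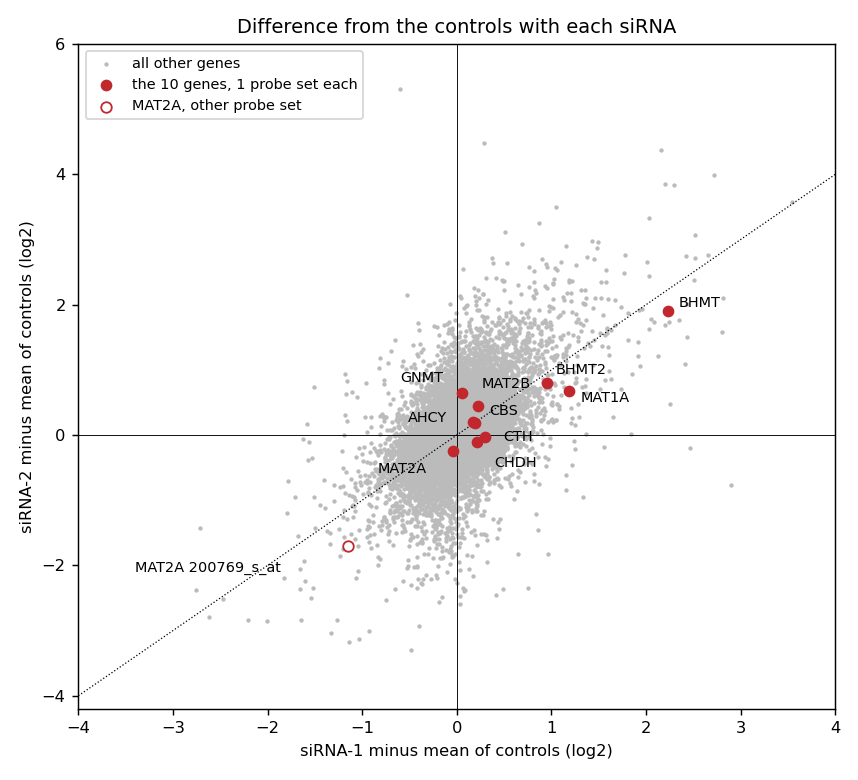
Difference from the mean of the 2 controls in log2 with siRNA-1 (horizontal) and siRNA-2 (vertical), for all 19775 genes in grey and the 10 genes in red, with a dotted line where both are equal. Both axes share the controls, so points spread along the line in part for that reason, and BHMT sits at 2.23 and 1.91, away from the grey centre.

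Other genes of the pathway were taken from 6 lists by role, of which 44 of 47 genes were measured. In the comparison of knockdown with control 0 of the 44 passed limma, and 8 had an unadjusted p under 0.05 (14.6% of all genes). Calls with siRNA-2 were 5 higher and 13 lower among the 44, where 13.4% of all genes rose and 10.2% fell. With siRNA-1 0 passed (12 of the 44 and 26.9% of all genes at an unadjusted p under 0.05). The folate route of remethylation, a parallel to BHMT, had values below 0 with siRNA-2 in all 4 genes measured of 5 listed (median -0.38, against -0.09 with siRNA-1). The smallest of those 4 differences was -0.03, and 10470 of all 19775 genes were below 0 with siRNA-2. MTR, methionine synthase, read -0.02 and 0.03 on the controls, 0.02 with siRNA-1 and -0.85 with siRNA-2. Relative to the mean of the controls it fell by 0.86 with siRNA-2 (limma adjusted p = 0.0207). On its second probe set the siRNA-1 array read 0.39 and the siRNA-2 array -0.50. MTRR, which reactivates MTR, fell by 0.64 with siRNA-2 (limma adjusted p = 0.0272) and read -0.21 relative to the controls with siRNA-1. MMADHC, which directs cobalamin to MTR or to mitochondria, differed by -0.12 with siRNA-2 and did not pass. BHMT and MTR, the enzymes of the 2 routes back to methionine, thus lay on opposite sides of the controls with siRNA-2 (1.91 and -0.86), while with siRNA-1 the differences were 2.23 for BHMT and 0.01 for MTR.

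The 8 measured genes for choline and betaine handling, of 9 listed, had a median of 0.12 with siRNA-2 and 0.16 with siRNA-1. PIPOX, the peroxisomal oxidase of sarcosine and pipecolate, read -0.26 and -0.35 on the controls, 0.56 with siRNA-1 and 0.26 with siRNA-2. It rose by 0.56 with siRNA-2, and its difference with siRNA-1 was 0.87. SLC6A12, a betaine transporter gene, was dim and read -0.40, -0.11, 0.11 and 0.20. The choline transporter gene SLC44A1 and PCYT1A, the regulated step of phosphatidylcholine synthesis, fell with siRNA-2 by 1.52 and 0.52. The 6 SLC44A1 probe sets disagreed, since their differences from the controls with siRNA-2 ran from -2.52 to -0.28 in 5 of them and reached 0.80 in 228486_at.

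The enzymes that spend SAM on small molecules, 7 measured of 8 listed, had a median of 0.02 with siRNA-2. AS3MT, the arsenite methyltransferase, read -0.38 and -0.27 on the controls, 0.27 with siRNA-1 and 1.18 with siRNA-2, a rise of 1.5 with siRNA-2 (limma adjusted p = 0.017). PEMT, which makes phosphatidylcholine by methylation in liver, read 0.05, -0.05, 0.08 and -0.96, so only siRNA-2 stood apart, and it fell by 0.96 (0.0218). TPMT, the thiopurine methyltransferase, differed by -0.31 with siRNA-2 and did not pass (limma adjusted p = 0.0815). Another TPMT probe set of the same class had the opposite sign, with differences of 0.33 with siRNA-1 and 0.36 with siRNA-2. Around adenosine, the 4 genes had a median of -0.14 with siRNA-2 and -0.05 with siRNA-1, and 0 passed limma between knockdown and control. AHCYL2 had controls of -0.03 and 0.38 that bracketed siRNA-2, ADA stood apart with siRNA-1 alone, where it read 0.49, and the 2 ADK probe sets read -0.06 and 0.86 with siRNA-1.

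Polyamine synthesis and the salvage of its by-product methylthioadenosine, which draw on SAM and return methionine, had the most calls with siRNA-2. All 9 listed genes were measured, 7 fell and 0 rose, where 10.2% of all genes fell and 13.4% rose. The list's median was -0.56 with siRNA-2, whereas it was -0.08 with siRNA-1. ODC1, the first step of polyamine synthesis, read 0.22 and 0.17 on the controls, -0.17 with siRNA-1 and -0.43 with siRNA-2. It fell by 0.62 with siRNA-2, and its difference with siRNA-1 was -0.36. AMD1, which decarboxylates SAM, SRM and SMS, the spermidine and spermine synthases, fell by 0.56, 0.56 and 0.59 with siRNA-2. In the salvage route MTAP, its first enzyme, read 0.19, 0.18, -0.18 and -2.10 in the order of the arrays and fell by 2.28 with siRNA-2. Its 3 probe sets of the middle class differed from the controls by -1.18 to -1.40 with siRNA-2. MRI1 and ENOPH1 fell by 0.43 and 0.57. A second MRI1 probe set of the brightest class had the opposite sign, with differences of 0.44 with siRNA-1 and 0.14 with siRNA-2. APIP differed by -0.39 (adjusted p = 0.0552), and ADI1, the last dioxygenase, was above the controls at 0.31 (0.0775). For MTAP the gap of -1.92 between the siRNAs passed (limma adjusted p = 0.0447), and for the other 8 genes it did not.

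The 12 measured genes for the fates of cysteine had a median of 0.20 with siRNA-2 and 0.09 with siRNA-1. CDO1, which oxidises cysteine toward taurine and sulfate, read -0.90 and -0.56 on the controls, 0.56 with siRNA-1 and 0.72 with siRNA-2. Its difference was 1.36 ± 0.16, with both knockdown arrays above both controls, and it rose by 1.45 with siRNA-2 (limma adjusted p = 0.0316). The dim second CDO1 probe set read -0.32 with siRNA-2 against the controls. SUOX, the sulfite oxidase that follows, read -0.18, -0.29, 0.18 and 0.37 and rose by 0.61 with siRNA-2 (limma adjusted p = 0.0357). GSS, glutathione synthetase, read -0.19, -0.17, 0.40 and 0.17, and its 2 probe sets differed by 0.46 and 0.48. Among sulfide enzymes TST, a thiosulfate sulfurtransferase, rose by 1.07 with siRNA-2 and SQOR, the sulfide quinone oxidoreductase, fell by 1.28, while with siRNA-1 they differed by 0.10 and -0.03.

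**Figure D4:**
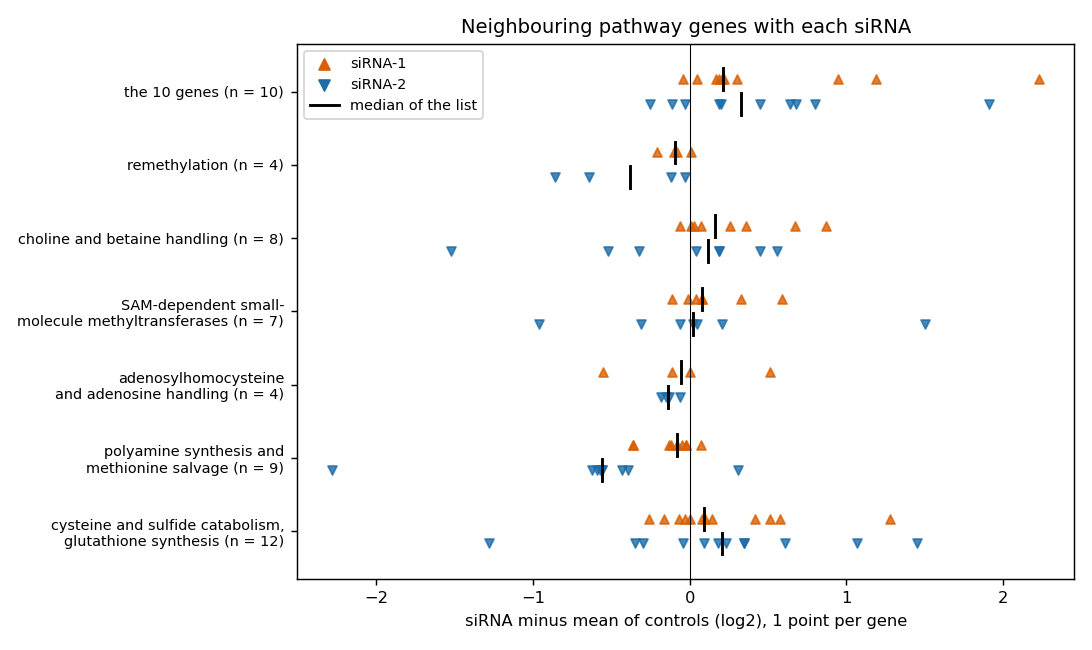
Difference from the mean of the controls (log2) with siRNA-1 (upward triangles) and siRNA-2 (downward triangles) for the 10 genes and the 6 lists, 1 point for each measured gene and a bar at each list's median. The polyamine and salvage list has its siRNA-2 median at -0.56 and its siRNA-1 median at -0.08, and the 10 genes have medians of 0.32 and 0.22.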

How the data were processed

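RNA of the 4 HepG2 samples was read on HG-U133 Plus 2.0 arrays. The deposited values are RMA values of the authors, per the submitters' processing notes, and were treated as log2. The sources used here give neither the log base nor the version, nor whether all arrays were normalized together. The values show that the authors also centred each of the 54675 probe sets on its median (largest deviation 5.0e-07). Brightness classes came from the numeric step of single-precision values. All 4 values had to fit the step, so the dimmest array can set the class. A probe set below the top class would be expected to fall 1 class too high in 12.5% of cases by chance, which was not measured. Of the probe sets, 41097 had 1 gene symbol, 1801 several (not used) and 11777 none, and 62 Affymetrix controls were left out. A gene's probe set was the one of the brightest class, ties going to those without a letter suffix and then to the first identifier. limma 3.58.1 in R 4.3.3 compared 2 with 2 arrays, and 3 groups for single siRNAs (two-sided, Benjamini-Hochberg over 19775 genes, threshold 0.05), after tests on simulated data. The number of arrays limits the precision.

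The members, lists and rules were chosen with earlier results of these data known. Named genes are all 10 members, KDM1A, the 3 genes of smallest p in each list, the neighbours of BHMT and the 5 genes nearest to it; the other pathway genes named were added because they passed with siRNA-2 or between the siRNAs, or to complete the polyamine list. The main fits did not pair the arrays by replicate number. A correlation of deviations of 0.035 cannot settle pairing, since the knockdown deviations also hold the difference between the siRNAs. Promoters are RefSeq's, build GRCh38.p14, and all 10 members had an entry. A planned comparison of the paralogs' proteins was not made. The 3 listed pathway genes and 2 listed markers without values are not analysed here.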

Additional observations from a re-analysis of the deposited data

Results flagged for a closer look

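Some of the 44 measured pathway genes were flagged by limma for the gap between the siRNAs (siRNA-2 minus siRNA-1). Each siRNA had 1 array, assumed to vary like the controls. In the limma fit over all probe sets these genes no longer passed. The gap was -0.87 for MTR, -1.78 for SLC44A1, -1.03 for PEMT, -1.92 for MTAP and -1.24 for SQOR, all lower with siRNA-2. It was 0.91 for AS3MT and 0.98 for TST, both higher with siRNA-2. On further probe sets the gap of MTR kept its sign, that of MTAP did so on all but a dim one, and 1 of 6 SLC44A1 probe sets had the opposite sign. No gap passed by limma for any of the 10 betaine, methionine and transsulfuration genes, which does not show that the siRNAs act alike on them. The siRNA-2 array had the widest values of the series (SD 0.384), and its part in these gaps was not tested.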

How the results depend on the processing

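The number of the 10 genes past the threshold between knockdown and control was 0, and 0 to 4 with 1 array left out, reaching 4 without LSD1_knockdown replicate 1; for the pathway genes it was 0, and 0 to 18. Without that array 4661 of all 19775 genes passed, against 1. LSD1_knockdown replicate 1 is the siRNA-1 array, so leaving it out sets siRNA-2 alone against the controls. Its counts repeat the siRNA-2 contrast given above and are no further check. With the replicate block 0 of the 10 genes passed. With siRNA-1, 2 genes passed with the mean of a gene's probe sets and 3 with arrays centred on their median, against 0; over all genes these settings gave 112 and 716, against 0. With siRNA-2, 2 of 7 testable genes passed without suffixed probe sets, against 4 of 10. In that setting 3140 of all 16782 testable genes passed with siRNA-2, against 4661 of 19775. Between the siRNAs 1 of the 10 genes passed without dim genes (MAT1A), against 0. The count of pathway genes for that gap, 7, became 4 without suffixed probe sets, 13 without dim genes and 4 with robust moderation. The count over all genes, 1271 of 19775, moved the same way. It became 613 of 16782 without suffixed probe sets, 3188 of 14526 without dim genes and 708 of 19775 with robust moderation. In an alternative chosen after seeing the data, 4 of 7 testable polyamine and salvage genes passed with siRNA-2 without suffixed probe sets, against 7. Over the 33 single results 231 alternatives kept direction and side of the threshold, 18 turned the sign and 8 newly passed. Those that newly passed all left out the siRNA-1 array, and so repeat the siRNA-2 contrast. CBS became -0.09 without suffixed probe sets and CTH -0.03 with the mean of its probe sets. With 1 array left out CTH ran from -0.03 to 0.30, CHDH from -0.11 to 0.21, and by probe set 242169_at from -0.12 to 0.24, 229284_at from -0.15 to 0.26, 240517_at from -0.18 to 0.00, 217127_at from -0.03 to 0.30, 1559590_at from -0.07 to 0.29, 1559591_s_at from -0.10 to 0.19, 228560_at from -0.11 to 0.21, 229954_at from -0.09 to 0.09 and 231994_at from -0.11 to 0.28. The causes were not tested. MAT2A was -0.15 on its brighter probe set and -0.79 with the mean of both.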
